A study of Homo sapiens with 9 samples.

Results

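Hyaluronan is a long sugar chain that cells spin out at their surface, and 10 genes that make it, tie it into the matrix or bind it were followed here in metastatic melanoma cells. The genes are the hyaluronan synthases HAS1, HAS2 and HAS3, the link proteins HAPLN1 and HAPLN3, the lecticans VCAN, ACAN and BCAN, the receptor CD44 and the binding protein TNFAIP6. Every probe set annotated to exactly 1 of these genes was taken, which gave 37 of the 54613 probe sets tested and covered 9 of the 10 genes. HAS1 had no such probe set and was not analysed here, and 1 probe set shared by HAS3 and another gene was left out. The set was drawn up with HAPLN1 chosen by its log2 difference between WFPA and EV cells, which was known to be among the largest rises in these data. The values of HAPLN1 are therefore given as a description with no test, and counts of calls are over the 33 probe sets of the other 8 genes.

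The arrays were made to ask how the tumour suppressor WWOX, an oxidoreductase with WW domains, alters gene expression in metastatic cells. MDA-MB435S cells, an established metastatic melanoma line, carried the lentiviral vector pDEST12.2 with wild-type WWOX (WWOX cells), with the WFPA mutant of WWOX, whose changed first WW domain alters the binding of some partners (WFPA cells), or empty (EV cells). All groups were G418-selected stable clones grown in the same serum-containing medium, and each was read on 3 Affymetrix U133 Plus 2.0 arrays. Whether a group's 3 arrays came from separate cultures or clones is not stated in the sources used here, so p-values measure only the spread between arrays, and clone and construct cannot be told apart.

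Hyaluronan is made at the inner face of the plasma membrane by the HAS enzymes from UDP-glucuronic acid and UDP-N-acetylglucosamine and is pushed out through the enzyme as it grows. In the matrix, lecticans bind the chain with their N-terminal domain, and a link protein binds both and locks the complex, which holds water and sets the stiffness of cartilage and of the coat around cells. CD44 is the main hyaluronan receptor at the cell surface, is abundant on melanoma cells and is linked to the actin skeleton through ERM proteins, and TNFAIP6 (TSG-6) is an inducible protein that moves heavy chains of inter-alpha-inhibitor onto hyaluronan.

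The deposited values were log2 intensities, called log2 expression here, and a difference of 1 is a change of 2-fold. No background level was given. The median of all values was 6.04, and the lower quartile lay between 4.23 and 4.34 in the 9 arrays. A group mean under that quartile is called dim, and how large a change to or from such a level is cannot be told exactly. Of the 37 probe sets, 22 had a highest group mean above the median, 10 lay between the quartile and the median and 5 were dim in every group. Pearson correlations over all probe sets were 0.988 to 0.993 among WWOX arrays, 0.996 among WFPA arrays and 0.994 to 0.996 among EV arrays, against 0.975 to 0.984 between WWOX arrays and arrays of either other group. The brightest WWOX probe set had a log2 expression of 10.66 ± 0.28 in WWOX cells, 10.24 ± 0.12 in WFPA cells and 8.94 ± 0.28 in EV cells (SD, n = 3 each), which follows the names of the groups, though not all 5 WWOX probe sets did so. A vector field in the labels goes against those names, since it gives wild-type WWOX for the EV arrays and no construct for the WWOX arrays, and the names were used. The names came from the sample titles, and those of the EV arrays also carry the tag wox+ after EV. What that tag means is not stated in the sources used here. Of 7 melanocyte markers measured, the transcription factor MITF was high in every group, whereas SOX10 and S100B were high in WWOX cells and near or under the median elsewhere, and the pigment genes TYR, TYRP1, PMEL and MLANA lay under the median in all groups. The mean log2 expression of the 7 markers was 7.68 to 7.86 in WWOX arrays, 5.83 to 5.92 in WFPA arrays and 5.71 to 5.79 in EV arrays (MITF, SOX10 and S100B were called higher in WWOX against EV cells, and the 4 pigment genes did not pass).

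The promoters below are shown because their genes carry the differences that follow: HAPLN1 stood out in WFPA cells, VCAN is its neighbour on the chromosome, and HAS3 was lower in both WWOX and WFPA cells. Each is a stretch of 30 bases from RefSeq on GRCh38.p14, written 5′ to 3′ on the strand of the gene, with the 6 bases of an E-box (CANNTG, searched on both strands) in capitals.
HAPLN1: gagcgctagcttCACTTGatctccagcttc
VCAN: tgtcacaacccgCATTTGaacttgcaggcg
HAS3: gtgggaaagcggCACGTGggtgtggccggc
The HAPLN1 stretch lies at chr5:83720839-83720868 on the minus strand, and its E-box begins at position -1, so that it spans the annotated start (the first base transcribed is +1). The VCAN stretch lies at chr5:83471733-83471762 on the plus strand, with the E-box at +2, and the HAS3 stretch at chr16:69107462-69107491 on the plus strand, with the E-box at -66. Each is the only E-box in its window of 250 bases before to 50 bases after the start. E-boxes were found in 68.7% of 35116 windows of that length, so these matches do not set the genes apart. AP-1 letters (TGANTCA, both strands) were in none of these 3 windows and in 7.71% of all windows, and TATAAA on either strand was in none of them and in 11.5% of all.

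A probe set was called where it passed a Benjamini-Hochberg adjusted p of 0.05 in limma with a change of at least 2-fold. In WWOX against EV cells 0 of 33 probe sets were higher and 1 was lower (HAS3 223541_at), when 3.29% of all probe sets were called, 1.66% higher and 1.64% lower. In WFPA against EV cells 1 was higher (VCAN 221731_x_at) and 1 lower (HAS3 223541_at), when 1.73% of all were called, 1.26% higher and 0.474% lower. In WWOX against WFPA cells limma called 0 in either direction, when 3.98% of all were called, 1.51% higher and 2.47% lower; limma-trend also called 0, and 10 of 33 had an unadjusted p under 0.05. With WWOX set against the mean of WFPA and EV cells, 0 were higher and 1 lower (HAS3 223541_at, fell by 1.17, limma adjusted p = 7.33e-04), when 3.23% of all were called, 1.46% higher and 1.77% lower. Both comparisons with EV cells share the EV arrays, so the calls of HAS3 223541_at in WWOX and in WFPA cells are not independent of each other. Counts of 0 in 1 direction were also 0 by limma-trend. At an unadjusted p under 0.05, 2 probe sets were higher in WWOX against EV cells and 5 in WWOX cells against the mean. The share of all probe sets at that unadjusted limit was not counted, so these counts do not set the members apart. In WWOX against WFPA cells 16.3% of all probe sets passed even the adjusted p.

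With no limit on the fold, more members passed the adjusted p. In WWOX against EV cells 1 was higher and 3 were lower (11.8% of all probe sets passed, 5.05% higher and 6.79% lower). In WFPA against EV cells 2 were higher and 3 lower (6.64% of all, 4.04% higher and 2.6% lower). In WWOX against WFPA cells 4 were higher and 4 lower (16.3% of all, 6.83% higher and 9.44% lower), and against the mean of both other groups 4 were higher and 3 lower in WWOX cells (16.3% of all, 6.88% higher and 9.46% lower). The median difference over the 33 probe sets was -0.03 in WWOX against EV, -0.16 in WFPA against EV and 0.12 in WWOX against WFPA cells, against 0.02, -0.04 and 0.05 over all probe sets.

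**Figure D1:**
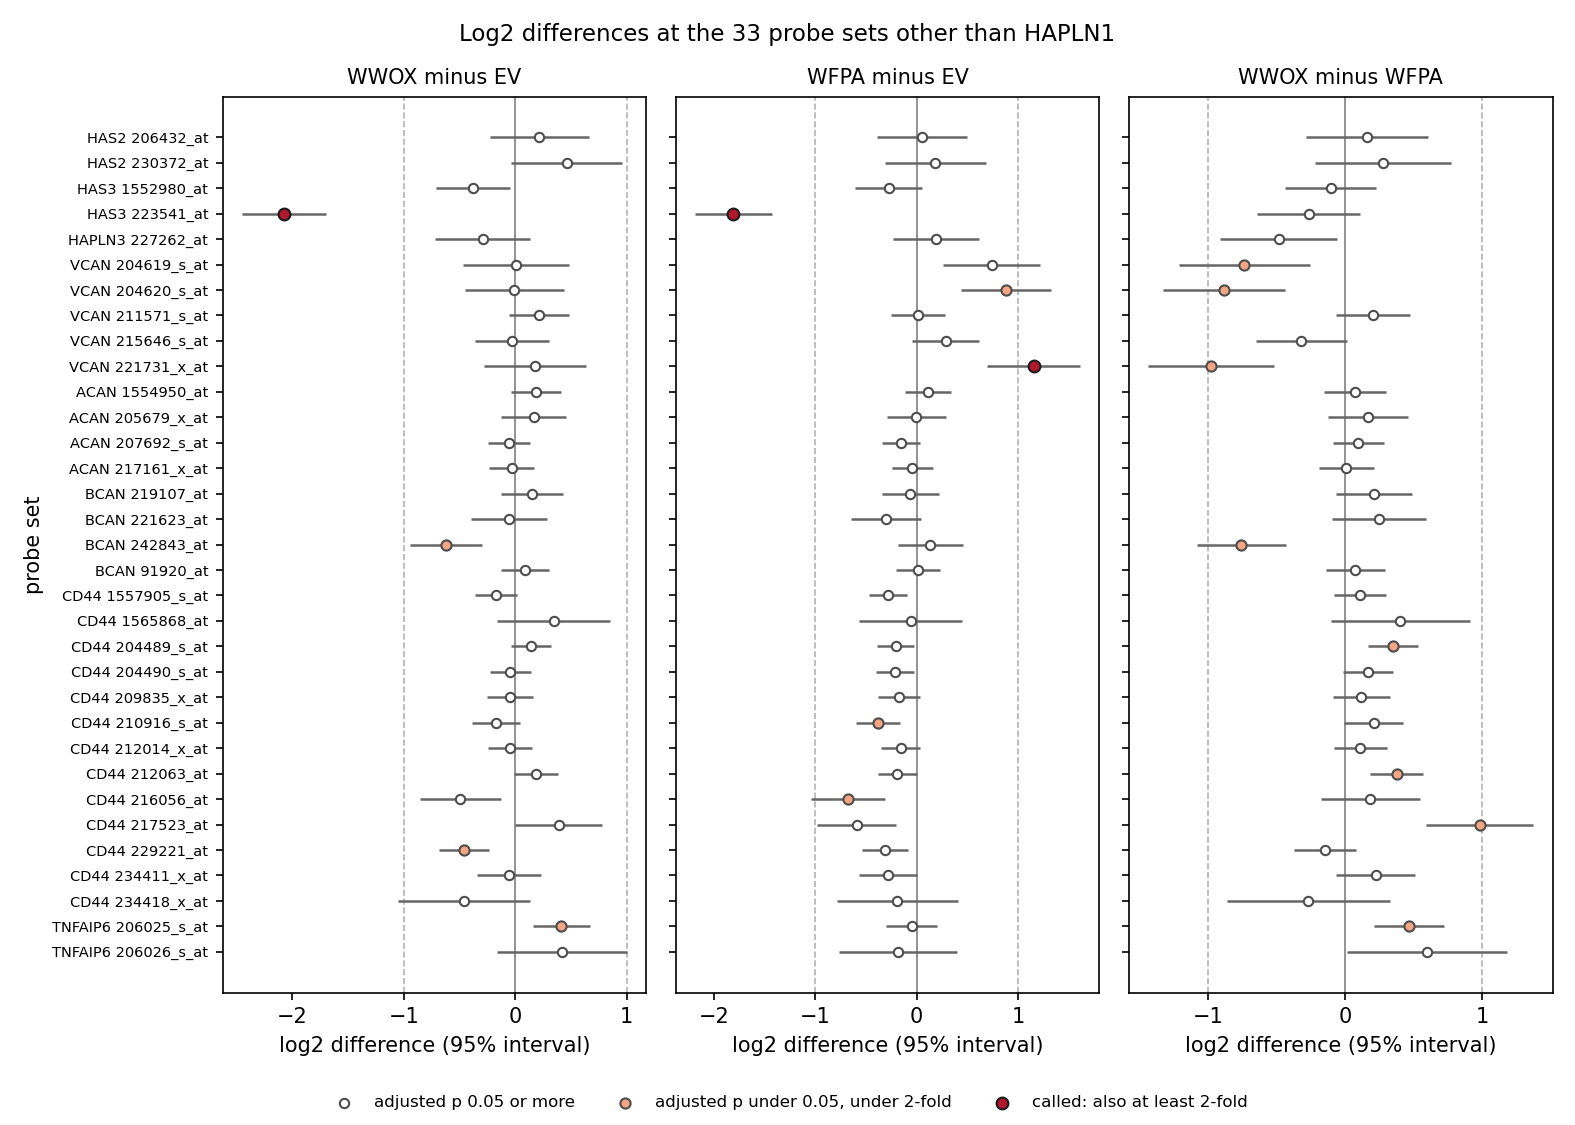
Log2 differences with 95% intervals (x axis) at the 33 probe sets other than HAPLN1 (y axis), for WWOX minus EV, WFPA minus EV and WWOX minus WFPA cells, with dashed lines at 2-fold and filled points where limma's adjusted p passed. HAS3 223541_at, at -2.07 and -1.81, lies farthest to the left against EV cells, and VCAN 221731_x_at, at 1.15 in WFPA minus EV, is the only call to the right.

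HAS3, one of the enzymes that spins the chain, was lower in both WWOX and WFPA cells than in EV cells at 1 of its 2 probe sets. At 223541_at its log2 expression was 6.05, 5.85 and 5.36 in WWOX cells, 5.87, 6.01 and 6.18 in WFPA cells and 7.89, 7.77 and 7.82 in EV cells. All 6 arrays of the WWOX and WFPA cells lay below the 3 EV arrays, and the WWOX and WFPA arrays overlapped. WWOX cells fell by 2.07 against EV cells (SE 0.17, the standard error of the fit in limma; Benjamini-Hochberg adjusted p = 6.71e-05 over all probe sets), a 4.21-fold change. WFPA cells fell by 1.81 against EV cells (SE 0.17, limma adjusted p = 3.75e-04), a 3.50-fold change. WWOX and WFPA cells differed by -0.27 (95% interval -0.64 to 0.11, limma adjusted p = 0.312).

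The other HAS3 probe set, 1552980_at, was bright and moved far less. It had 10.88, 11.01 and 10.43 in WWOX cells, 10.76, 10.92 and 10.95 in WFPA cells and 11.19, 11.24 and 11.04 in EV cells. The EV arrays were again the highest, without overlap, but the differences were only -0.38 for WWOX and -0.28 for WFPA cells (95% intervals -0.71 to -0.05 and -0.61 to 0.06, limma adjusted p = 0.143 and 0.363). The probe sets thus disagree on the size of the fall of HAS3, and which parts of the transcripts they read was not looked up. CHTF8, a close neighbour of HAS3 on the chromosome, had a like level and order, with means of 10.88, 11.12 and 11.33 in WWOX, WFPA and EV cells. Whether 1552980_at reads HAS3 alone was not tested. The call in WWOX against EV cells held in every alternative tried, the strictest being Bonferroni adjustment with a 4-fold limit, which ended the call in WFPA against EV cells.

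HAS2, the synthase that builds the pericellular coat in many mesenchymal cells, was low. Its log2 expression at 230372_at was 5.35 ± 0.41 in WWOX cells, 5.08 ± 0.24 in WFPA cells and 4.89 ± 0.26 in EV cells (SD, n = 3 each), and at 206432_at all 3 group means lay between 4.10 and 4.32. Arrays of the groups overlapped at both probe sets. The largest difference, 0.46 between WWOX and EV cells at 230372_at, had a 95% interval of -0.04 to 0.96 and did not pass (limma adjusted p = 0.237).

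**Figure D2:**
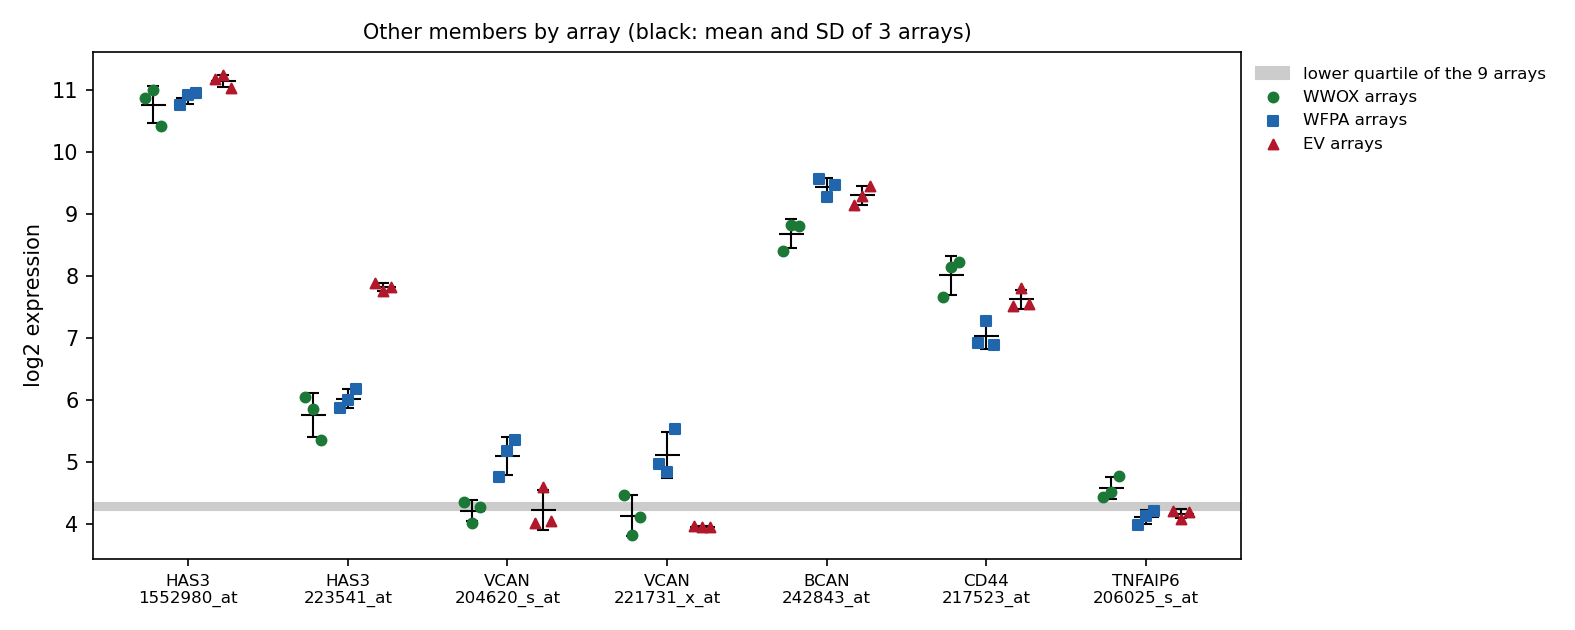
Log2 expression (y axis) at 7 probe sets of HAS3, VCAN, BCAN, CD44 and TNFAIP6 (x axis), 1 point per array in WWOX, WFPA and EV cells, with each mean ± SD (3 arrays) in black and the lower quartile of the arrays as a grey band. HAS3 223541_at is at 7.77 to 7.89 in the EV arrays and at 5.36 to 6.18 in all others, while HAS3 1552980_at stays above 10.4 throughout, and the VCAN and TNFAIP6 points lie close to the band.

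HAPLN1, the link protein first known from cartilage, was high in WFPA cells and low in the others. At its brightest probe set, 230204_at, log2 expression was 5.22, 4.86 and 5.40 in WWOX cells, 9.79, 9.76 and 9.72 in WFPA cells and 4.79, 4.70 and 4.58 in EV cells. All WFPA arrays lay far above the other 6, and the WWOX arrays lay just above the EV arrays, without overlap. WFPA cells were 5.07 above EV cells, or 33.5-fold, and WWOX cells differed from WFPA cells by -4.60.

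The other 3 probe sets of HAPLN1 had the same order of WFPA, WWOX and EV means. At 205523_at the values were 4.31, 4.91 and 3.28 in WWOX cells, 9.04, 9.06 and 8.75 in WFPA cells and 3.40, 3.31 and 3.46 in EV cells, a difference of 5.56 between WFPA and EV cells. At 230895_at they were 4.35, 4.39 and 4.38 in WWOX cells, 8.08, 8.07 and 8.04 in WFPA cells and 4.01, 4.04 and 3.97 in EV cells, a difference of 4.06. In these 2 the EV arrays were dim, so that the folds are uncertain in size, and at 205523_at 1 WWOX array lay below the EV arrays while the other 2 lay above them.

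At the fourth probe set, 205524_s_at, the span was far narrower. Its log2 expression was 5.78, 5.75 and 5.82 in WWOX cells, 6.87, 6.86 and 7.04 in WFPA cells and 5.48, 5.38 and 5.48 in EV cells, so that WFPA cells were 1.48 above EV cells. The 4 probe sets stood at ranks 9, 10, 20 and 297 among all rises of WFPA over EV cells, and HAPLN1 was second of 19775 genes when each gene was stood for by its brightest probe set. Between WWOX and EV cells the 4 differences were 0.33 to 0.78, all above 0. Replacing the deposited scale by quantile normalization changed the 4 differences of WFPA over EV cells to between 1.46 and 5.53.

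**Figure D3:**
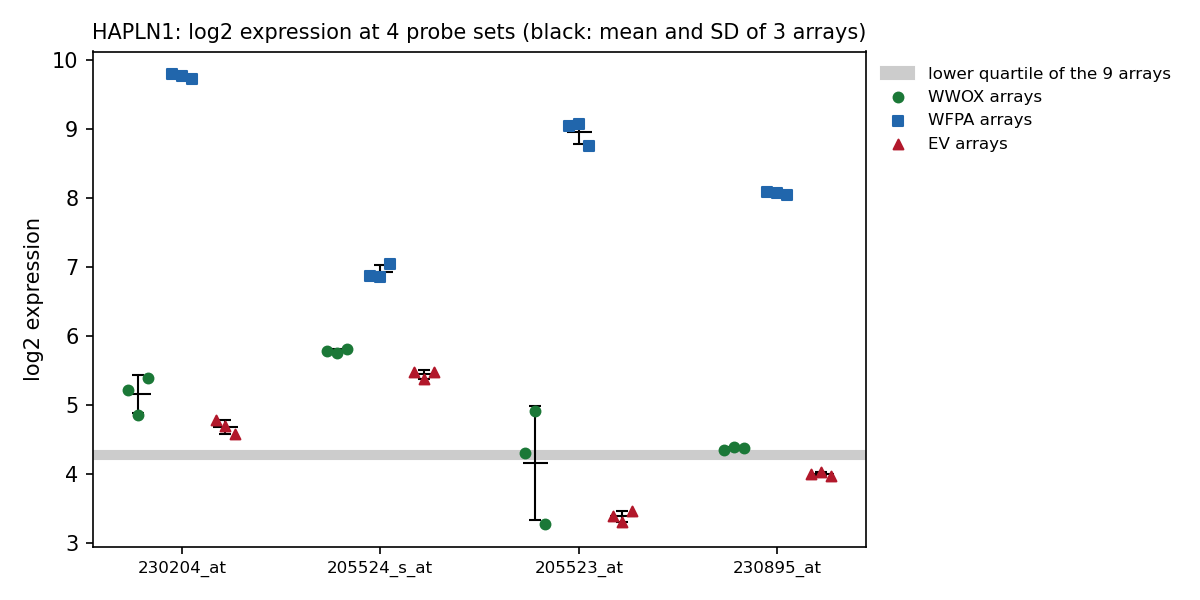
Log2 expression (y axis) of HAPLN1 at its 4 probe sets (x axis), 1 point per array in WWOX, WFPA and EV cells, with each mean ± SD (3 arrays) in black and the lower quartile of the arrays as a grey band. The WFPA arrays lie between 6.86 and 9.79 and are above all WWOX and EV arrays at every probe set.

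HAPLN3, a link protein found in many tissues, was read by 1 probe set, 227262_at. It had 7.04, 6.51 and 6.51 in WWOX cells, 7.15, 7.06 and 7.31 in WFPA cells and 7.29, 6.99 and 6.67 in EV cells. The WWOX arrays lay below the WFPA arrays and overlapped with the EV arrays. No difference passed: WFPA cells differed from EV cells by 0.19 (95% interval -0.24 to 0.62, limma adjusted p = 0.663), and WWOX from WFPA cells by -0.48 (95% interval -0.91 to -0.06, limma adjusted p = 0.118).

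The genes whose pattern over the 9 arrays was most like that of HAPLN1 230204_at, by Pearson correlation among 12492 genes with a brightest probe set above the median, were OR7E19P, an olfactory receptor pseudogene (r = 0.996), ASNS, the asparagine synthetase (0.996), ECM2, a matrix protein (0.994), DNASE2, the lysosomal deoxyribonuclease (0.993), and TMPRSS15, the serine protease enteropeptidase (0.992). The 9 points fall into 3 groups with WFPA cells apart, so that these values describe a step between WFPA cells and the rest. ECM2 had a log2 expression of 6.87 ± 0.20 in WWOX cells, 10.01 ± 0.20 in WFPA cells and 6.54 ± 0.25 in EV cells (SD, n = 3 each). In ASNS the same means were 10.63 ± 0.06 in WWOX cells, 12.75 ± 0.06 in WFPA cells and 10.52 ± 0.02 in EV cells.

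VCAN encodes versican, the widely expressed lectican, and was low in all groups. It lies next to HAPLN1 on chromosome 5 with 0 coding genes between them, as ACAN lies next to HAPLN3 on chromosome 15. At 221731_x_at VCAN rose in WFPA cells, with 4.47, 3.81 and 4.11 in WWOX cells, 4.97, 4.83 and 5.53 in WFPA cells and 3.96, 3.95 and 3.96 in EV cells. The WFPA arrays lay above all others, 1 of them well above the other 2, and the WWOX arrays overlapped with the EV arrays. WFPA cells were 1.15 above EV cells (SE 0.20, limma adjusted p = 0.0105), and WWOX cells differed from WFPA cells by -0.98 (SE 0.20, limma adjusted p = 0.0113), just under 2-fold. The probes of an x_at set can also bind related transcripts, and the EV mean was dim, so that the fold is uncertain, and without WFPA replicate 3 the rise was 0.94 and no longer 2-fold.

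The other 4 VCAN probe sets did not reach 2-fold. At 204620_s_at the values were 4.35, 4.02 and 4.26 in WWOX cells, 4.76, 5.18 and 5.36 in WFPA cells and 4.02, 4.59 and 4.05 in EV cells, with WFPA arrays above all others, and WFPA cells were 0.88 above EV cells (limma adjusted p = 0.0311). That pass was lost without WFPA replicate 2, WFPA replicate 3, EV replicate 1 or EV replicate 3 (limma adjusted p = 0.107 to 0.114), without moderation of variances and with the replicate block. At 204619_s_at, which was dim in every group, the difference was 0.74 (limma adjusted p = 0.0778). At the brightest, 211571_s_at, WFPA and EV cells had 4.56 ± 0.13 and 4.55 ± 0.17 (SD, n = 3 each), and the difference of 0.01 had a 95% interval of -0.26 to 0.28. All 5 VCAN probe sets were above 0 in WFPA over EV cells, by 0.01 to 1.15, with a median of 0.74. Over all probe sets 57.3% lay below 0, with a median of -0.04. The 5 probe sets read 1 gene and are not independent. In WWOX against WFPA cells 204620_s_at (-0.89) and 204619_s_at (-0.74) passed the adjusted p (limma adjusted p = 0.0154 and 0.044). The first pass was lost in 3 of 9 fits that left out 1 array, and the second in 8 of 9.

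ACAN, the aggrecan of cartilage, differed little. Its 4 probe sets had differences of -0.06 to 0.19 for WWOX against EV cells, -0.16 to 0.11 for WFPA against EV cells and 0.01 to 0.17 for WWOX against WFPA cells, and none passed the test. At 207692_s_at, the brightest, the means were 6.77 ± 0.06 in WWOX cells, 6.67 ± 0.06 in WFPA cells and 6.82 ± 0.07 in EV cells (SD, n = 3 each).

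BCAN, the brevican of brain matrix, was lower in WWOX cells at its brightest probe set. At 242843_at it had 8.41, 8.82 and 8.81 in WWOX cells, 9.57, 9.27 and 9.48 in WFPA cells and 9.15, 9.30 and 9.46 in EV cells. All WWOX arrays lay below the other 6, which overlapped with each other. WWOX cells differed by -0.62 from EV cells and by -0.76 from WFPA cells (SE 0.14 each, limma adjusted p = 0.0226 and 0.007), both under 2-fold. The pass against EV cells was lost without EV replicate 2 or EV replicate 3 (limma adjusted p = 0.0663 and 0.0847) and without moderation of variances. The other 3 BCAN probe sets had WWOX minus EV differences of -0.06, 0.08 and 0.15. Their WWOX minus WFPA differences were 0.25, 0.07 and 0.21, all opposite in direction to 242843_at, and none passed in either comparison.

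CD44 was bright at 7 of its 13 probe sets, where every group mean was above 11. In WFPA cells all 13 probe sets lay below their EV means, with differences of -0.06 to -0.68, with a median difference of -0.21, against 57.3% of all probe sets below 0 and a median of -0.04 over all. In 11 of the 13 every WFPA array lay below every EV array, which held for 15.9% of all probe sets. None reached 2-fold, and of the 13 only 210916_s_at and 216056_at passed the adjusted p alone, with differences of -0.38 and -0.68 (limma adjusted p = 0.0487 and 0.0384). The pass of 210916_s_at was lost with the replicate block (limma adjusted p = 0.089) and in 8 of 9 fits that left out 1 array (0.0557 to 0.174), all but the fit without WWOX replicate 3. The pass of 216056_at was lost without moderation of variances (limma adjusted p = 0.0976) and in 7 of 9 such fits (0.0529 to 0.127), all but those without WWOX replicate 1 or WWOX replicate 3. The 13 probe sets read 1 gene and are not independent, and the 13 of 13 held under median centring and under quantile normalization.

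The differences were small at the bright CD44 probe sets, of which 204489_s_at and 212063_at had WWOX cells highest. At 204489_s_at the values were 13.67, 13.64 and 13.57 in WWOX cells, 13.30, 13.31 and 13.23 in WFPA cells and 13.54, 13.42 and 13.50 in EV cells. The 3 groups did not overlap, with WWOX highest and WFPA lowest, and WWOX cells were 0.35 above WFPA cells (limma adjusted p = 0.0172). At 212063_at the order was the same and WWOX cells were 0.38 above WFPA cells (limma adjusted p = 0.0169). Both passes were lost without WWOX replicate 2, WFPA replicate 1 or WFPA replicate 3 (limma adjusted p = 0.0506 to 0.0696 and 0.0523 to 0.0674). At the other bright probe sets EV cells had the highest mean, with WWOX minus EV differences of -0.175 to -0.046.

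The largest CD44 difference was at 217523_at. It had 7.66, 8.14 and 8.24 in WWOX cells, 6.92, 7.28 and 6.89 in WFPA cells and 7.52, 7.81 and 7.54 in EV cells. WWOX arrays lay above all WFPA arrays and overlapped with EV arrays, and WFPA arrays were the lowest. WWOX cells were 0.98 above WFPA cells (SE 0.17, limma adjusted p = 0.00492), just under 2-fold. Quantile normalization brought this to 1.05, and it was 1.16 without WWOX replicate 1 and 1.10 without WFPA replicate 2, all past 2-fold. Against EV cells WWOX cells were 0.39 higher (95% interval 0.00 to 0.78, limma adjusted p = 0.199).

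At 229221_at, CD44 ran the other way in WWOX cells. It had 8.80, 8.62 and 8.52 in WWOX cells, 8.74, 8.79 and 8.86 in WFPA cells and 9.02, 9.20 and 9.10 in EV cells, so that the EV arrays were the highest. WWOX cells fell by 0.46 against EV cells (limma adjusted p = 0.0175), which was lost without WWOX replicate 2, EV replicate 2 or EV replicate 3 (0.054 to 0.0644). Over the 13 probe sets, WWOX minus EV differences lay between -0.49 and 0.39, with 4 above 0 and 9 below, so that the direction for CD44 in WWOX against EV cells depended on the probe set.

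**Figure D4:**
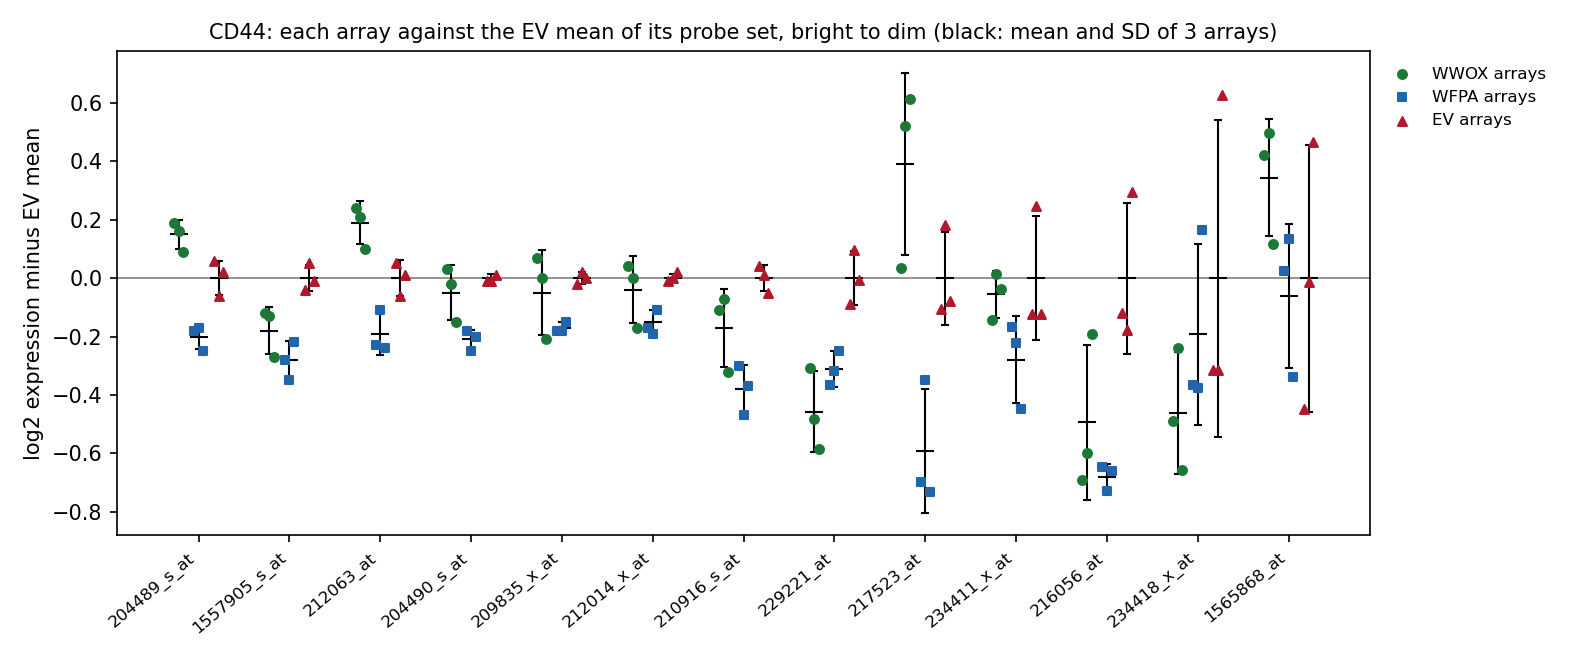
Log2 expression of each array minus the EV mean of the same probe set (y axis) at the 13 CD44 probe sets (x axis, bright to dim), in WWOX, WFPA and EV cells, with each mean ± SD (3 arrays) in black. The WFPA mean is below 0 at all 13 probe sets, and the WWOX mean is above 0 at 4 and below at 9.

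TNFAIP6 was dim at 206026_s_at in every group and low at 206025_s_at. At 206025_s_at it had 4.43, 4.52 and 4.77 in WWOX cells, 3.99, 4.13 and 4.21 in WFPA cells and 4.21, 4.08 and 4.19 in EV cells. The WWOX arrays lay above the other 6. WWOX cells were 0.41 above EV cells and 0.46 above WFPA cells (SE 0.11 each, limma adjusted p = 0.0453 and 0.0229), under 2-fold and from dim levels. The pass against EV cells was lost with limma-trend (adjusted p = 0.0526), no moderation of variances (0.0697), quantile normalization (0.0509) and the replicate block (0.0556), and in 8 of 9 fits that left out 1 array (limma adjusted p = 0.0587 to 0.138), all but the fit without WWOX replicate 1. The pass against WFPA cells was lost without WFPA replicate 1 or WFPA replicate 2 (limma adjusted p = 0.0843 and 0.0638).

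Around these genes, 10 lists of related genes held 104 names, of which 99 were measured. In WWOX against EV cells 6 of the 99 genes were higher and 1 was lower (7.07%, against 3.90% of all genes), in WFPA against EV cells 1 was higher and 0 lower (1.01%, against 2.23%), and in WWOX against WFPA cells 4 were higher and 1 lower (5.05%, against 4.73%). The median difference over the 99 genes was 0.09 in WWOX against EV, -0.05 in WFPA against EV and 0.15 in WWOX against WFPA cells, against 0.03, -0.04 and 0.07 over all genes. No gene was called among 8 hyaluronan-degrading enzymes, 5 other hyaluronan receptors, 11 genes for UDP-sugar precursors, 3 other lecticans and link proteins and 7 lectican-cleaving ADAMTS proteases in these 3 comparisons. Of these 34 genes limma-trend also called 0. In WWOX against EV, WFPA against EV and WWOX against WFPA cells, 9, 9 and 13 had an unadjusted p under 0.05 in limma. The share of all genes at that unadjusted limit was not counted, so these counts do not set the 34 genes apart. Some of the 34 did pass the adjusted p at under 2-fold. Among them were UAP1 (-0.65) and HEXA (0.78) in WWOX against EV cells (limma adjusted p = 0.0012 and 0.011). HMMR (-0.47) passed in WFPA against EV cells (limma adjusted p = 0.013). UAP1 (-0.42) and HEXA (0.68) also passed in WWOX against WFPA cells (limma adjusted p = 0.0088 and 0.016).

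Of 6 genes of inter-alpha-inhibitor, whose heavy chains TNFAIP6 transfers to hyaluronan, ITIH5 was called. It had 6.10, 6.95 and 6.26 in WWOX cells, 5.22, 4.91 and 4.86 in WFPA cells and 5.22, 5.08 and 4.97 in EV cells, so that WWOX arrays lay above all others. WWOX cells were 1.35 above EV cells and 1.44 above WFPA cells (limma adjusted p = 0.00344 and 0.00186). The mean of all its probe sets gave 0.58 and 0.72, under 2-fold.

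Of 22 genes of chondroitin sulfate synthesis, which make the side chains that lecticans carry, CSGALNACT1, CHST11 and UST were called. CSGALNACT1, which starts the chain, had 7.39 ± 0.14 in WWOX cells, 5.37 ± 0.18 in WFPA cells and 5.47 ± 0.08 in EV cells (SD, n = 3 each). WWOX cells were 1.93 above EV and 2.03 above WFPA cells (limma adjusted p = 1.19e-05 and 8.09e-06), and the mean of its probe sets gave 0.98 against EV cells, just under 2-fold. CHST11, which adds sulfate at the 4-position of N-acetylgalactosamine, ran the other way, with 9.40 ± 0.15 in WWOX cells, 10.74 ± 0.10 in WFPA cells and 10.31 ± 0.06 in EV cells (SD, n = 3 each). It was called in WWOX against WFPA cells, at -1.34 (limma adjusted p = 4.19e-05).

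UST, a sulfotransferase that acts on uronic acid, was the only list gene called in WFPA against EV cells. It had 8.91, 8.62 and 8.52 in WWOX cells, 8.60, 8.60 and 8.85 in WFPA cells and 7.84, 7.59 and 7.20 in EV cells, with EV arrays below all others. Both WWOX and WFPA cells were 1.14 above EV cells (limma adjusted p = 0.00302 and 0.0052), and without EV replicate 3 both differences were 0.97 and no longer 2-fold. The mean of all its probe sets gave 0.77 for WWOX and 0.72 for WFPA cells.

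Among 8 ERM linkers and regulators of CD44 splicing, ESRP1, the splicing factor that promotes the variant exons of CD44 in epithelial cells, was called. It had 9.03, 9.39 and 8.91 in WWOX cells, 4.95, 3.74 and 4.53 in WFPA cells and 4.05, 3.23 and 4.97 in EV cells. The WWOX arrays stood far above the rest, which were near or under the lower quartile. WWOX cells were 5.03 above EV cells and 4.70 above WFPA cells (limma adjusted p = 9.33e-05 and 1.26e-04).

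Of 12 genes listed here as lectican partners, ERBB3 and FBN1 were called. ERBB3, a receptor of the EGF receptor family, was 1.43 higher in WWOX than in EV cells (limma adjusted p = 8.34e-05). FBN1, the fibrillin of microfibrils, fell by 1.21 (limma adjusted p = 0.00167). The means of their probe sets gave 0.67 and -0.84, under 2-fold. Of 17 cartilage matrix genes, SOX6, a transcription factor of cartilage and of the pigment lineage, had 8.08 ± 0.23 in WWOX cells, 4.28 ± 0.11 in WFPA cells and 4.54 ± 0.20 in EV cells (SD, n = 3 each), so that WWOX cells were 3.54 above EV and 3.81 above WFPA cells (limma adjusted p = 1.13e-06 and 8.35e-07). In WFPA against EV cells limma called 0 of the 17 cartilage genes, and 1 had an unadjusted p under 0.05. The share of all genes at that unadjusted limit was not counted. Limma-trend called 1, the collagen chain COL9A2 (1.06, limma adjusted p = 0.0646). SOX6, ITIH5, CSGALNACT1 and ESRP1 moved in the same cells as the melanocyte markers SOX10 and S100B, whose part in these differences was not tested. ERBB3 and FBN1 also differed between WFPA and EV cells, by 0.58 and -0.77 (limma adjusted p = 0.021 and 0.026), both under 2-fold.

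**Figure D5:**
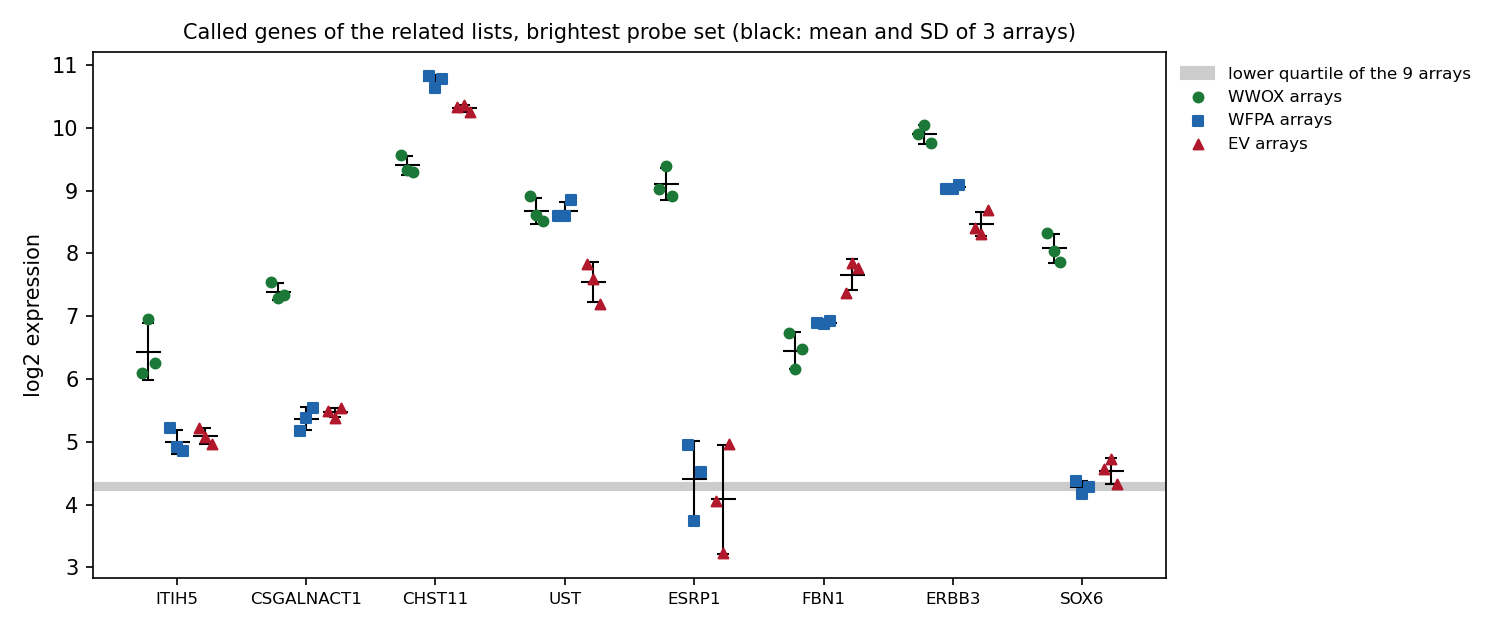
Log2 expression (y axis) of the 8 called genes of the related lists at their brightest probe set (x axis), 1 point per array in WWOX, WFPA and EV cells, with each mean ± SD (3 arrays) in black and the lower quartile of the arrays as a grey band. In ESRP1 and SOX6 the WWOX arrays lie at 7.87 to 9.39 and all others under 5, and in UST the EV arrays are the lowest.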

How the data were processed

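RNA of 9 samples was read on 1-colour Affymetrix U133 Plus 2.0 arrays. Scans were turned by the authors, with Partek Genomics Suite 6.5, into the deposited log2 intensities; the background and normalization methods are not given in the sources used here, and no further normalization was applied. Of 54675 probe sets, 62 array controls were left out. Groups came from the sample titles. In limma 3.58.1 (R 4.3.3) 1 mean was fitted for each group of 3 arrays on all 54613 probe sets (lmFit, eBayes), with 6 residual and 3.04 prior degrees of freedom and Benjamini-Hochberg adjustment over all of them. A call needed an adjusted p under 0.05 and at least 2-fold.

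Probe sets were named through the platform annotation, with symbols updated by gene ID; 41091 carried 1 gene, 1801 several and 11721 none. A list gene is stood for by its probe set with the highest mean, 1 of 19775. Named list genes are at most the 3 with the largest differences per list, comparison and direction among those called; the 5 genes most like HAPLN1 were chosen by correlation over the 9 arrays. The members and lists were chosen with earlier results of these data known. The fit was tested on simulated data. The number of arrays limits the precision. Alternatives were limma-trend, a model without moderated variances, Bonferroni adjustment with the 4-fold limit of the methods, no fold limit, quantile normalization, median centring, a filter on dim probe sets, a replicate block, the omission of single arrays, and the mean of a gene's probe sets. Figures were drawn with Python 3.11.15 and matplotlib 3.10.9.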

Additional observations from a re-analysis of the deposited data

How the results depend on the processing

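No difference of HAPLN1, of members past the adjusted p or of called list genes changed direction in any alternative. This covers the comparisons of WWOX, WFPA and EV cells with each other. Only quantile normalization, median centring, the omission of single arrays and, for list genes, the mean of a gene's probe sets could alter a difference. The other alternatives leave the differences as they are and bear only on the calls. With no fold limit, probe sets higher and lower were 1 and 3 in WWOX against EV, 2 and 3 in WFPA against EV, 4 and 4 in WWOX against WFPA and 4 and 3 in WWOX against the mean of the others. Bonferroni adjustment with 4-fold left 0 higher and 0 lower in WFPA against EV and 0 lower in WWOX against the mean. The filter on dim probe sets, which kept 28890, left 0 higher in WFPA against EV, since VCAN 221731_x_at was then not tested. Quantile normalization gave 1 higher (CD44 217523_at) and 1 lower (VCAN 221731_x_at) in WWOX against WFPA. Leaving out 1 array gave 0 to 2 higher in WFPA against EV (0 without WFPA replicate 3, 2 without WFPA replicate 1, WFPA replicate 2 or EV replicate 2), 0 to 1 higher in WWOX against WFPA (1 without WWOX replicate 1 or WFPA replicate 2), 0 to 2 lower in the same (1 without WWOX replicate 1, 2 without WFPA replicate 1 or WFPA replicate 2), and 0 to 1 lower in WWOX against the mean (0 without WWOX replicate 3).

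Over all probe sets, Bonferroni adjustment with 4-fold called 212 higher and 106 lower in WWOX against EV, where 904 and 894 were called at 2-fold, 84 and 25 in WFPA against EV, where 687 and 259 were, and 175 and 157 in WWOX against WFPA, where 822 and 1351 were. With no fold limit the same counts were 2757 and 3706, 2206 and 1421, and 3728 and 5157. With the replicate block, 3.23%, 1.66% and 3.94% of all probe sets were called in these 3 comparisons, and no count of members called at 2-fold changed. Passes without a fold limit were lost at CD44 210916_s_at and VCAN 204620_s_at in WFPA against EV (limma adjusted p = 0.089 and 0.0599). Also lost were VCAN 204619_s_at in WWOX against WFPA and TNFAIP6 206025_s_at in WWOX against EV (limma adjusted p = 0.0654 and 0.0556). Deviations of same-numbered arrays from their group means correlated at -0.05 to 0.03 over all probe sets. Whether such arrays share a batch is not stated in the sources used here, and these values cannot exclude it for part of the probe sets. List genes higher in WFPA against EV were 2 with the replicate block and with limma-trend, and 0 without EV replicate 3. The mean of a gene's probe sets gave 3 list genes higher in WWOX against EV and 0 in WFPA against EV. Those 3 are not all among the genes called at the brightest probe set, since ITIH5, CSGALNACT1, UST and ERBB3 fell under 2-fold. Levels near the lower quartile limit what can be said of VCAN, HAS2 and TNFAIP6.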

Other observations

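The genes that flank HAPLN1 and HAS3 on the chromosome were looked up after the values of both had been seen. Of the 10 coding genes nearest to HAPLN1, 9 were measured, and at the brightest probe set of each limma called 0 of them in WWOX against EV, WFPA against EV or WWOX against WFPA cells, as did limma-trend, while 4, 2 and 2 had an unadjusted p under 0.05 in limma. The share of all genes at that unadjusted limit was not counted, so these counts do not set the neighbours apart. Of all genes, 3.90%, 2.23% and 4.73% were called in these comparisons. CCNH, a neighbour of HAPLN1, passed the adjusted p at under 2-fold. It differed by -0.51 in WWOX against EV and by -0.50 in WWOX against WFPA cells (limma adjusted p = 0.0034 and 0.0029). The 9 neighbours differed between WFPA and EV cells at those probe sets by -0.24 to 0.33. VCAN is 1 of the 9 and enters through 211571_s_at (0.01), while its other 4 probe sets differed by 0.29 to 1.15 and 221731_x_at (1.15) was called. EDIL3, the neighbour of HAPLN1 on the side away from VCAN and a secreted matrix protein, had 4.95 ± 0.05 in WWOX cells, 4.90 ± 0.04 in WFPA cells and 4.83 ± 0.08 in EV cells (SD, n = 3 each), and XRCC4, a DNA repair factor on the other side of VCAN, had 10.40 ± 0.06, 10.67 ± 0.02 and 10.60 ± 0.08 in WWOX, WFPA and EV cells (SD, n = 3 each).

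Of the 10 coding genes nearest to HAS3 on chromosome 16, 9 were measured and 1 was called, in WFPA against EV and in WWOX against WFPA cells. Of all genes, 2.23% and 4.73% were called in those comparisons. The called neighbour was CDH1, the E-cadherin of epithelial junctions. It had 4.50, 4.32 and 4.81 in WWOX cells, 7.81, 7.87 and 7.66 in WFPA cells and 4.35, 4.92 and 4.74 in EV cells. The WFPA arrays lay above all others, and WWOX and EV arrays overlapped. WFPA cells were 3.11 above EV cells (limma adjusted p = 1.43e-05), while HAS3 223541_at fell by 1.81 in WFPA cells. Whether the position of CDH1 near HAS3 has a part in this was not tested. ZFP90, another neighbour, passed the adjusted p at under 2-fold. It differed by -0.82 in WWOX against EV and by -0.95 in WWOX against WFPA cells (limma adjusted p = 0.043 and 0.019).

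In markers of other cell types, GATA3, a transcription factor of breast epithelium, had 6.76 ± 0.09 in WWOX cells, 8.69 ± 0.09 in WFPA cells and 7.10 ± 0.12 in EV cells (SD, n = 3 each), and was called higher in WFPA than in EV cells. PTPRC, the leukocyte antigen CD45, had 5.48 ± 0.55 in WWOX cells, 7.66 ± 0.19 in WFPA cells and 9.88 ± 0.16 in EV cells. LUM, a proteoglycan of fibroblasts, had 6.41 ± 0.18 in WWOX cells, 2.07 ± 0.18 in WFPA cells and 2.03 ± 0.11 in EV cells. It was dim in WFPA and EV cells, so that the fold is uncertain. COL1A2, also a fibroblast marker, had 7.86 ± 0.16 in WWOX cells, 7.27 ± 0.05 in WFPA cells and 5.74 ± 0.14 in EV cells. It was called higher in both WWOX and WFPA cells against EV cells. The fibroblast markers COL1A1, COL3A1, DCN, PDGFRA and THY1 were not called. Over whole lists, limma called 0, 1 and 0 of 6 breast epithelium genes higher in WWOX against EV, WFPA against EV and WWOX against WFPA cells, 2, 1 and 1 of 7 fibroblast genes higher, and 1, 1 and 1 of 4 haematopoietic genes lower. GATA3 was also called lower in WWOX against WFPA cells (-1.93). Of all genes, 3.90%, 2.23% and 4.73% were called in these 3 comparisons.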
